A study of Mus musculus with 23 samples.

Results

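The genes described here encode the contractile and cytoskeletal apparatus of smooth muscle. They were chosen by name, as 37 gene symbols, and every array probe annotated to any of them was taken. The choice was made with earlier results of these data known, so comparisons with all genes only describe this list. Of the 37 genes, 34 were measured, against 10955 genes measured in all, and 70 of their 84 probes were tested. Cnn3, a calponin, had no probe that carried its symbol alone, while Nexn, an actin-binding Z-disc protein, and Filip1l, a filamin A interacting protein-like protein, were not detected on enough arrays. RNA came from the thoracic aorta, the abdominal aorta and the mesenteric arteries of male C57BL/6J mice, aged 12 weeks at the start, that received a subcutaneous osmotic minipump for 14 days. The pump delivered angiotensin II at 490 ng/kg/min to the AngII mice and vehicle to the Sham mice. Each Illumina MouseWG-6 array held RNA of 1 vessel pooled from 2 mice, with 3 AngII and 3 Sham arrays for the thoracic aorta, 3 and 3 for the abdominal aorta, and 6 and 5 for the mesenteric arteries. The p-values therefore measure the spread between pools, and the number of arrays limits the precision. The authors' count of mice for this profiling is below 2 per array, so pools of different vessels shared mice. Which pools did so is not labelled, and tests between vessels treated all arrays as independent.

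Smooth muscle shortens when myosin filaments pull on actin filaments that end in dense bodies within the cell and in dense plaques at its surface. Calcium sets the force through myosin light chain kinase, and myosin phosphatase removes the phosphate again. Serum response factor, bound to CArG boxes in DNA, drives most of these genes together with its cofactor myocardin. In the aorta the muscle lies between elastic sheets, whereas mesenteric arteries regulate resistance to flow.

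Signals are log2 intensities after background correction and quantile normalisation across the 23 arrays, so a difference of 1 is a factor of 2. A gene passed when its adjusted p lay under 0.05 in limma, with Benjamini-Hochberg adjustment over 20585 transcripts. Most of the genes were abundant: 7 of the 34 ranked among the top 100 transcripts by mean signal and 21 among the top 1000. The best probe of each was detected on all 23 arrays, except that of Ppp1r12b, detected on 5. Tln1, Cnn1 and Synpo2 were dim, with mean signals of 6.31, 6.23 and 5.97, at ranks 12038, 12319 and 13357 of the 20585. Several arrays carried RNA of neighbouring tissue. Try4, a pancreatic protease, reached 12.37 and 14.04 on 2 AngII mesenteric arrays and 14.01 on 1 Sham mesenteric array. Acta1, skeletal muscle actin, reached 11.19 on 1 Sham abdominal array. The tissue was bulk vessel, so fewer muscle cells and less RNA per muscle cell cannot be told apart.

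In the thoracic aorta 12 of the 34 genes fell with AngII (8.01% of all genes were lower) and 1 rose (10.5% were higher). The 12 were Myh11, Actg2, Cnn1, Mylk, Ppp1r12a, Ppp1r14a, Synpo2, Pdlim7, Itga8, Pgm5, Flna and Srf, and the gene that rose was Fhl2. The median log2 difference was −0.28, against 0 over all genes, and 31 genes were negative and 3 positive. Every AngII value was below every Sham value in 23 of the 34 genes (20.2% of all genes), and above in 1 (19.3%). The AngII minus Sham differences of the 34 genes are drawn by vessel and role.

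**Figure D1:**
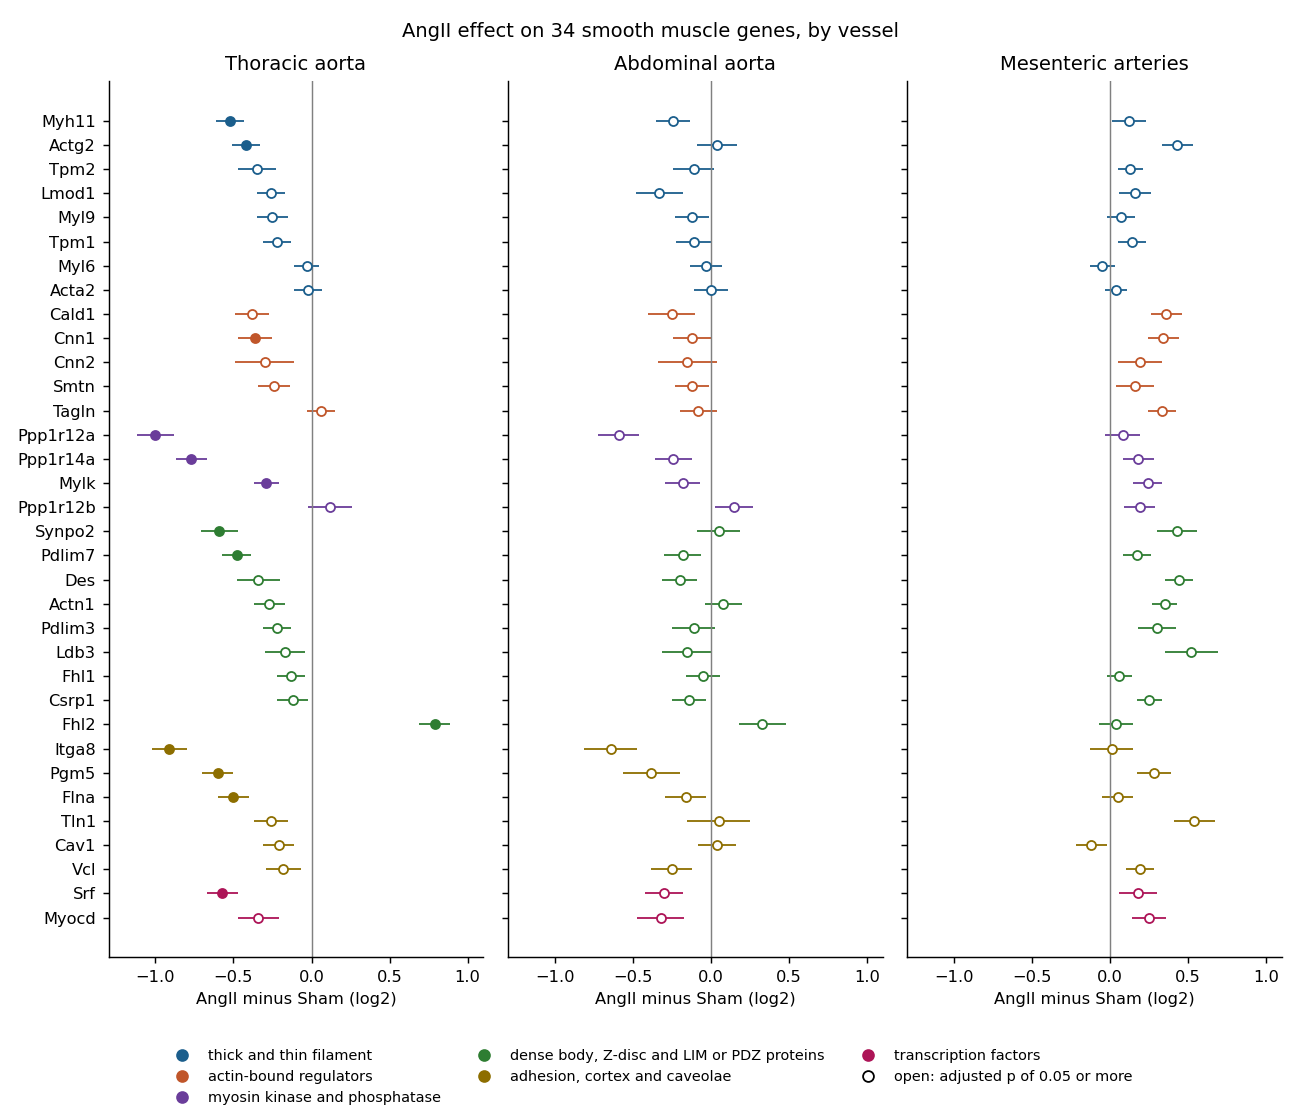
Log2 difference, AngII minus Sham, with its standard error, for each of the 34 measured genes, grouped by role, with 1 panel for each vessel. Filled points passed an adjusted p under 0.05. In the thoracic aorta 31 genes lie below 0 and 12 of them passed, whereas in the mesenteric arteries 32 lie above 0 and 0 passed.

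Of the transcription factors, Srf, the serum response factor itself, fell. It read 9.86, 9.73 and 9.61 on the AngII thoracic arrays and 10.31, 10.40 and 10.21 on the Sham arrays, a log2 difference of −0.57 (standard error 0.10, limma adjusted p = 0.00602). The groups did not overlap, and both Srf probes passed. Myocd, the myocardin cofactor, read 10.95, 11.24 and 11.24 on the AngII arrays and 11.26, 11.68 and 11.51 on the Sham arrays. Its difference of −0.34 did not pass (adjusted p = 0.104), although every AngII value was below every Sham value. Among 9 other SRF cofactors and antagonists, 0 rose (10.5% of all genes) and 2 fell (8.01%). The 2 were Gata6, a zinc finger factor, by −0.52 (adjusted p = 0.0155) and Mef2c, a MADS-box factor, by −0.38 (adjusted p = 0.0354).

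The promoters of these genes were searched for the CArG box, the SRF motif, on both strands from 250 bases before to 50 bases after the start (RefSeq, GRCm38.p6). The motif is its own reverse complement. The box was matched exactly, as CC, 6 letters of A or T and GG, so forms with a mismatch were not counted. A window was given for 32 of the 37 genes, and 9 of the 32 held the box (28.1%), against 488 of 27025 genes (1.81%). The 9 were Srf, Myl6, Myl9, Cnn2, Ldb3, Fhl1, Fhl2, Filip1l and Vcl. Of the 12 genes that fell in the thoracic aorta, 10 had a window and 1, Srf, held the box. Of the 21 measured genes that did not pass there, 19 had a window and 6 held it. Actg2 and Myh11, which fell, had no window, nor had Myocd, Nexn and Tagln, so their promoters were not searched. A match describes letters and not a bound site, and no match says only that the letters are not in this window. Shown are Srf and Fhl2, the genes with a box that fell and rose with AngII, and Vcl and Myl9, genes with a box that did not pass. The CArG boxes are in capitals, and their first bases lie 82 and 62 bases before the start in Srf, 31 in the shown start of Fhl2, 227 in Vcl and 161 in Myl9. Another start of Fhl2 had a box 96 bases before it.
Srf, chr17:46556113-46556412, minus strand: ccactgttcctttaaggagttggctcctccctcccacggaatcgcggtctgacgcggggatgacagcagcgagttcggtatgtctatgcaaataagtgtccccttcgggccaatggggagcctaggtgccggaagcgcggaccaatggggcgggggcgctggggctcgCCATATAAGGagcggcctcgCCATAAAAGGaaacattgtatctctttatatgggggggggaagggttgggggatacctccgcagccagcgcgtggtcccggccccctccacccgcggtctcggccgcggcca
Fhl2, chr1:43163912-43164211, minus strand: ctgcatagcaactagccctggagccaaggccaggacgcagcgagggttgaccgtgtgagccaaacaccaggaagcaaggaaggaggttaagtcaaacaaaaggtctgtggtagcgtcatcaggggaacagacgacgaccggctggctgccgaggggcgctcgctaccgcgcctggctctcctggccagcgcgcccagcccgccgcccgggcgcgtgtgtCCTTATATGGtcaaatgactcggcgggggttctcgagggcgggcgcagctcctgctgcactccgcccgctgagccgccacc
Vcl, chr14:20929148-20929447, plus strand: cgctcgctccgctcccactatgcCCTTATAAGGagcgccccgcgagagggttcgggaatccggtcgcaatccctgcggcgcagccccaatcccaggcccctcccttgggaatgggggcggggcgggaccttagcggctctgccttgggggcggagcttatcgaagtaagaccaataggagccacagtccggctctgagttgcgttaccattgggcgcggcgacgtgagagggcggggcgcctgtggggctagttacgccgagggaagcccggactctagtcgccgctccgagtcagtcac
Myl9, chr2:156775214-156775513, plus strand: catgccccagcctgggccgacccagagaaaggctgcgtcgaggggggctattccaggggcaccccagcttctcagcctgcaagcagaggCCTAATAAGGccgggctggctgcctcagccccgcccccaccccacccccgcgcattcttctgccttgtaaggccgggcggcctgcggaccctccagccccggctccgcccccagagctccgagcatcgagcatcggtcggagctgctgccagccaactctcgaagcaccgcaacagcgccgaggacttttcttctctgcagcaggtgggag

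Of the 8 filament genes, 2 fell in the thoracic aorta. Myh11, the smooth muscle myosin heavy chain, read 13.01, 13.12 and 13.08 on the AngII arrays and 13.57, 13.66 and 13.54 on the Sham arrays (difference −0.52, standard error 0.09, limma adjusted p = 0.00472). The groups stood apart, and both Myh11 probes passed. Actg2, smooth muscle γ-actin, fell by 0.42 (adjusted p = 0.0133), a call lost without Sham thoracic array 2 (adjusted p = 0.0529). Acta2, smooth muscle α-actin, read 14.39, 14.43 and 14.53 on the AngII arrays and 14.45, 14.53 and 14.43 on the Sham arrays, so the groups overlapped (difference −0.02, adjusted p = 0.898). Myl6, the essential light chain of myosin, read 14.53, 14.45 and 14.45 in AngII and 14.53, 14.45 and 14.53 in Sham (difference −0.03, adjusted p = 0.873). These probes ranked among the brightest of the 20585, Acta2 at 1 to 18 and Myl6 at 1 to 29 on the 23 arrays, and quantile normalisation gives probes of equal rank the same value. The 5 Acta2 probes had differences of −0.12 to 0.13, and 0 passed. The other filament genes were negative without passing: Myl9, the regulatory light chain, at −0.25, Tpm1 and Tpm2, tropomyosins, at −0.22 and −0.35, and Lmod1, the actin nucleator leiomodin 1, at −0.26. Another Tpm1 probe fell by 0.32 (adjusted p = 0.0367).

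Of the 5 measured actin-bound regulators, 1 fell, Cnn1, calponin 1 (difference −0.36, adjusted p = 0.0477). That call was lost on leaving out any of 5 of the 6 thoracic arrays in turn, with adjusted p-values up to 0.137. It was also lost under 5 of 10 other processing settings, and on the authors' values the Cnn1 difference was −0.16 and did not pass. Smtn, smoothelin, read 12.83, 12.88 and 12.65 on the AngII arrays and 13.07, 13.03 and 12.97 on the Sham arrays. Its groups did not overlap, but its difference of −0.24 did not pass (adjusted p = 0.123). Cald1, caldesmon, read 11.96, 12.14 and 12.10 in AngII and 12.37, 12.31 and 12.66 in Sham (difference −0.38, adjusted p = 0.0522). Cnn2, a calponin found beyond muscle, was at −0.30. Tagln, transgelin or SM22α, was one of the 3 positive genes, with 11.66, 11.61 and 11.71 in AngII and 11.56, 11.66 and 11.58 in Sham, values that overlapped (difference 0.06, adjusted p = 0.688).

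Of the 4 genes of the myosin kinase and phosphatase, 3 fell. Ppp1r12a, the subunit that targets the phosphatase to myosin, had the most negative difference of all 34 genes. It read 10.42, 10.77 and 10.51 on the AngII arrays and 11.51, 11.70 and 11.48 on the Sham arrays, a ratio of 0.5 (difference −1.0, standard error 0.12, limma adjusted p = 0.000863). Ppp1r14a, the phosphatase inhibitor CPI-17, read 9.64, 9.47 and 9.49 in AngII and 10.33, 10.19 and 10.38 in Sham (difference −0.77, standard error 0.10, adjusted p = 0.00123). Both genes had groups far apart on the scale of their spread, and both probes of each passed, although the other Ppp1r12a probe had a difference of −0.61 (adjusted p = 0.0058). Mylk, the kinase, fell by 0.29 (adjusted p = 0.0481) with all 3 of its probes passing. The call for its brightest probe was lost on leaving out each of the 6 thoracic arrays in turn, with adjusted p-values up to 0.124, and in 1 fit of the 6 group means. Ppp1r12b, a related targeting subunit at the edge of detection, read 4.93, 5.09 and 5.29 in AngII and 4.88, 5.27 and 4.79 in Sham (difference 0.12, adjusted p = 0.614). Of 16 other genes of calcium sensitisation and phosphatase control, 0 rose (10.5% of all genes) and 3 fell (8.01%). Among those, Ppp1cb, the catalytic subunit of the phosphatase, had a difference of −0.50 (adjusted p = 0.00782).

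The 9 measured genes of dense bodies, Z-discs and LIM or PDZ proteins went both ways. Fhl2, a LIM-only protein that binds actin-linked complexes and transcription factors, read 7.67, 7.44 and 7.71 on the AngII arrays and 6.82, 6.88 and 6.76 on the Sham arrays. Every AngII value was above every Sham value, a ratio of 1.73 (difference 0.79, standard error 0.10, limma adjusted p = 0.00138). On the authors' values the Fhl2 difference was 0.45 and also passed. Synpo2, an actin-bundling protein of Z-discs and dense bodies, fell: its values were 5.93, 5.89 and 5.85 in AngII and 6.42, 6.71 and 6.29 in Sham (difference −0.59, adjusted p = 0.0104, and −0.21 on the authors' values, which also passed). Pdlim7, the PDZ and LIM protein Enigma, read 11.73, 11.60 and 11.54 in AngII and 12.09, 12.09 and 12.15 in Sham (difference −0.48, adjusted p = 0.0077). Neither gene's groups overlapped, and both Synpo2 probes passed. Fhl1, another LIM-only protein, read 13.74, 13.85 and 13.74 in AngII and 13.88, 13.89 and 13.95 in Sham (difference −0.13, adjusted p = 0.327). Csrp1, a cysteine-rich LIM protein, read 13.32, 13.17 and 13.22 in AngII and 13.50, 13.34 and 13.23 in Sham (difference −0.12, adjusted p = 0.439). Csrp1 values overlapped, whereas those of Fhl1 did not. Actn1, the actin crosslinker α-actinin 1, was at −0.27, Des, the intermediate filament desmin, at −0.34, Ldb3, a Z-disc PDZ protein, at −0.17 and Pdlim3, a PDZ and LIM partner of α-actinin, at −0.22, and 0 of these 4 passed on the brightest probe. Another probe of Pdlim3 fell by 0.43 (adjusted p = 0.0105), and another of Ldb3 by 0.34 (adjusted p = 0.0242).

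**Figure D2:**
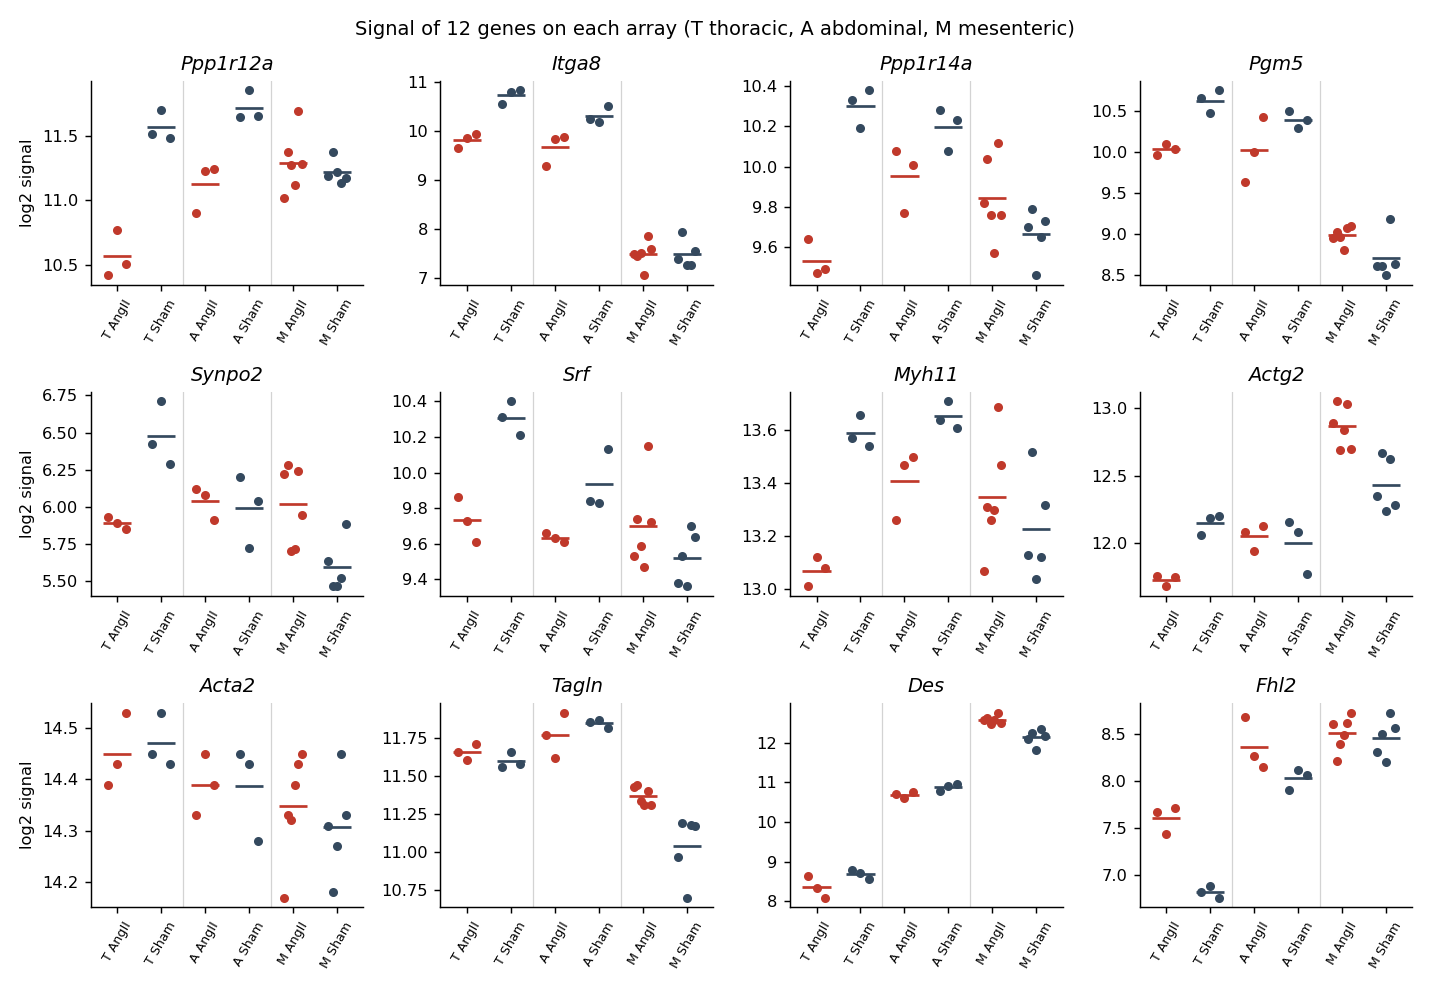
Log2 signal of 12 genes on every array, by vessel, with AngII arrays to the left of Sham arrays, and a bar at each group mean. Ppp1r12a, Itga8 and Srf lie lower on all 3 AngII than on all 3 Sham arrays in both parts of the aorta, whereas Des lies higher on all 6 AngII than on all 5 Sham mesenteric arrays.

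Of the 6 genes of adhesion, cortex and caveolae, 3 fell. Itga8, the integrin α8 chain that marks vascular smooth muscle, read 9.66, 9.86 and 9.93 on the AngII arrays and 10.55, 10.80 and 10.83 on the Sham arrays, a ratio of 0.531 (difference −0.91, standard error 0.11, limma adjusted p = 0.00126). Its other probe was also negative but did not pass (difference −0.34, adjusted p = 0.0746). Pgm5, a phosphoglucomutase-like protein of adherens junctions without known enzyme activity, read 9.97, 10.10 and 10.04 in AngII and 10.66, 10.48 and 10.76 in Sham, and all 3 probes passed (difference −0.60, adjusted p = 0.00482). Flna, the actin crosslinker filamin A, read 12.09, 12.05 and 11.87 in AngII and 12.44, 12.57 and 12.51 in Sham (difference −0.50, adjusted p = 0.00874). All 3 genes had AngII values wholly below the Sham values. Vcl, vinculin, read 12.02, 11.94 and 12.06 in AngII and 11.97, 12.36 and 12.25 in Sham (difference −0.18, adjusted p = 0.307). Cav1, caveolin 1, read 12.26, 12.26 and 12.46 in AngII and 12.42, 12.54 and 12.67 in Sham (difference −0.21, adjusted p = 0.187). Both genes had overlapping groups and did not pass, nor did Tln1, talin 1, which links integrins to actin (difference −0.26). Of 18 other adhesion genes, 1 rose, Itga5, the fibronectin receptor α5 chain (difference 0.66, adjusted p = 0.00967). In the same list 5 fell, among them Zyx, the focal adhesion protein zyxin (−0.45, adjusted p = 0.0156), and Itga7, a laminin receptor chain (−0.42, adjusted p = 0.0177). Of 10 other genes of caveolae and the dystrophin complex, 0 rose and 1 fell, Dtna, dystrobrevin α (−0.66, adjusted p = 0.00166). Beside both lists, 10.5% of all genes rose and 8.01% fell.

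Of 17 actin and myosin genes that are not confined to muscle, 2 were higher and 2 lower in the thoracic aorta, with a median of −0.03, beside 10.5% higher and 8.01% lower among all genes. Tpm4, a non-muscle tropomyosin, rose by 0.72 (adjusted p = 0.00279) and Tmsb10, an actin monomer-binding thymosin, rose by 0.31 (adjusted p = 0.0483). Myh10, non-muscle myosin heavy chain IIB, fell by 0.59 (adjusted p = 0.0106), and Myl6b, a myosin light chain, fell by 0.41 (adjusted p = 0.0133). Of 21 other dense body and filament genes, 2 rose, Palld, the actin-binding palladin (0.48, adjusted p = 0.0201), and Mustn1 (0.50, adjusted p = 0.0314). In that list, whose median was 0, 2 fell, Hspb6, a small heat shock protein (−0.48, adjusted p = 0.0126), and Pdlim4, a PDZ and LIM protein (−0.48, adjusted p = 0.0133).

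Most probes leaned the same way. Of the 70 probes of the 34 genes, 66 had a negative thoracic difference and 4 a positive one, 24 passed lower and 1 passed higher, and the median was −0.32. Within groups the arrays lay close together, with a median SD over the 34 genes of 0.09 among AngII and 0.08 among Sham thoracic arrays. A dim Tpm2 probe stood apart in the abdominal aorta at −1.79, where 1 Sham array was the one rich in skeletal muscle RNA, and it did not pass.

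**Figure D3:**
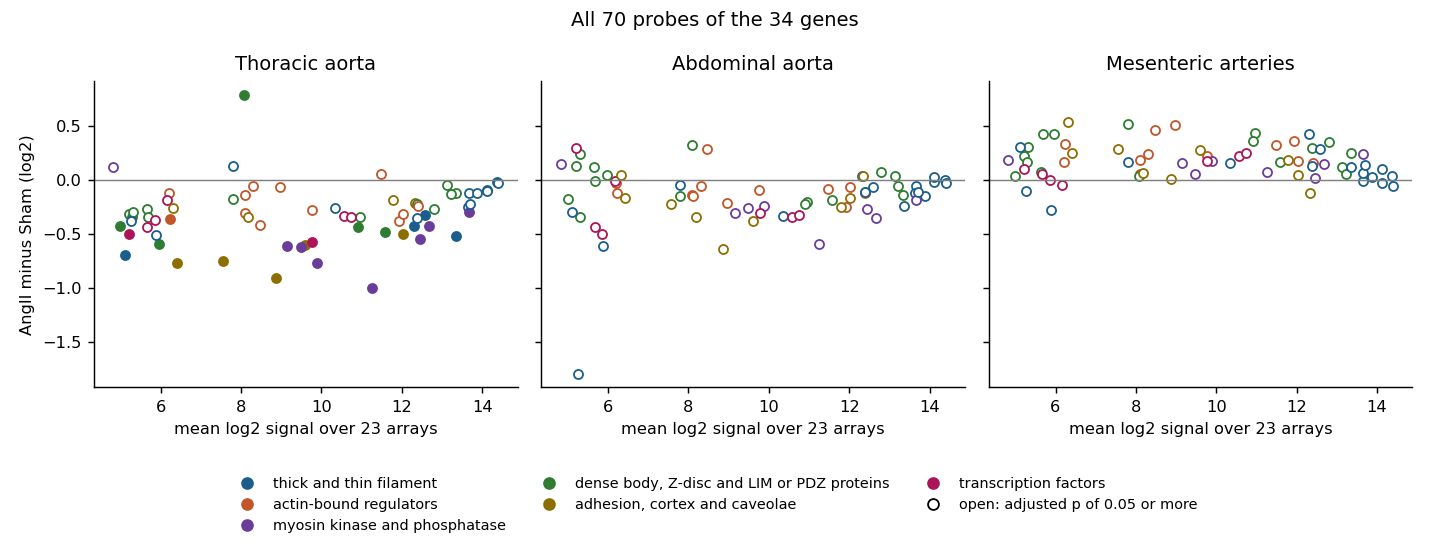
Log2 difference, AngII minus Sham, of each of the 70 tested probes on the vertical axis against its mean log2 signal over the 23 arrays on the horizontal axis, coloured by role, in the 3 vessels, with filled points for an adjusted p under 0.05. In the thoracic aorta 66 of the 70 probes lie below 0, and 62 of the 70 lie above 0 in the mesenteric arteries.

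Markers of other cell types moved with the thoracic comparison. Fibroblast markers averaged 11.25 to 11.42 on the AngII arrays and 10.55 to 10.57 on the Sham arrays, with 6 of 8 measured markers higher and 0 lower. Macrophage markers averaged 8.41 to 9.15 in AngII and 8.08 to 8.33 in Sham, with 5 of 9 higher. White adipocyte markers averaged 7.65 to 7.91 in AngII and 6.78 to 7.30 in Sham, with 4 of 7 higher. Endothelial markers averaged 8.92 to 8.99 in AngII and 8.65 to 8.79 in Sham, with 3 of 12 higher and 1 lower. Brown adipocyte markers averaged 9.17 to 9.56 in AngII and 8.38 to 9.33 in Sham, with 1 of 6 higher and a median difference of 0.72. Among all genes 10.5% were higher and 8.01% lower. The part of these markers in the lower muscle signals was not tested.

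In the abdominal aorta 0 of the 34 genes passed in either direction (1.27% of all genes were higher and 0.146% lower). At an unadjusted p under 0.05 there were 3, against 1693 of all 10955 genes. The median difference was −0.13, against −0.02 over all genes, with 26 genes negative and 8 positive. The AngII values lay wholly below the Sham values in 8 genes (11% of all genes), namely Myh11, Tpm1, Mylk, Ppp1r12a, Ppp1r14a, Des, Itga8 and Srf, and above them in 1, Fhl2 (10.8%). Chosen after their values were seen, Ppp1r12a read 10.90, 11.23 and 11.24 in AngII and 11.64, 11.85 and 11.65 in Sham (difference −0.59, standard error 0.13, limma adjusted p = 0.0755). Likewise Itga8 read 9.28, 9.84 and 9.88 in AngII and 10.24, 10.19 and 10.50 in Sham (difference −0.64, standard error 0.17, adjusted p = 0.124). Fhl2 read 8.68, 8.27 and 8.15 in AngII and 7.91, 8.12 and 8.07 in Sham (difference 0.33, adjusted p = 0.338). These 3 had the same sign as in the thoracic aorta.

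The brightest abdominal genes differed little. Acta2 read 14.33, 14.45 and 14.39 on the AngII arrays and 14.45, 14.43 and 14.28 on the Sham arrays, a difference of 0.00 (standard error 0.11, adjusted p = 0.992). Mylk read 13.44, 13.54 and 13.68 in AngII and 13.71, 13.73 and 13.78 in Sham (difference −0.18, adjusted p = 0.477). Fhl1 read 13.72, 13.81 and 13.92 in AngII and 13.85, 13.85 and 13.89 in Sham (difference −0.05, adjusted p = 0.862). Of these only Mylk had separate groups. Smtn, Flna and Myocd had differences of −0.12, −0.16 and −0.32, and Srf of −0.30, with adjusted p-values of 0.65, 0.616, 0.355 and 0.272. The other Srf probe went the other way at 0.30, as did another Smtn probe at 0.29, and neither passed. AngII array 3 was the highest of its group in 21 of the 34 genes. Its brown adipocyte markers averaged 5.73, against 8.83 and 8.17 on the other AngII arrays and 6.22 to 6.80 on the Sham arrays. Of 6 such markers 0 passed. Macrophage markers averaged 8.97 to 9.72 in AngII and 8.27 to 8.66 in Sham, with 2 of 9 passing higher, and fibroblast markers 11.51 to 11.68 and 11.15 to 11.31, with 2 of 8. Their part in these differences was not tested.

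In the mesenteric arteries 0 of the 34 genes passed in either direction (0.265% of all genes were higher and 0.0456% lower). Of the 34, 14 had an unadjusted p under 0.05, against 1666 of all 10955 genes. The differences leaned upwards: the median was 0.18, against −0.01 over all genes, with 32 genes positive and 2 negative, Cav1 at −0.12 and Myl6 at −0.05. All 6 AngII arrays lay above all 5 Sham arrays in 4 genes (1.55% of all genes), Des, Actg2, Actn1 and Tagln, and below them in 0 (0.895%). These 4 and Tln1 were chosen after their values were seen. Des read 12.47 to 12.76 in AngII (median 12.56) and 12.10, 12.25, 11.82, 12.34 and 12.16 in Sham, a ratio of 1.36 (difference 0.44, standard error 0.09, limma adjusted p = 0.061). Actg2 read 12.69 to 13.05 in AngII (median 12.87) and 12.35, 12.67, 12.24, 12.62 and 12.28 in Sham (difference 0.43, adjusted p = 0.078). The lowest AngII value of each gene lay just above the highest Sham value. Actn1 read 12.50 to 12.80 in AngII (median 12.65) and 12.07, 12.45, 12.25, 12.35 and 12.30 in Sham (difference 0.35, adjusted p = 0.0782). Tagln read 11.31 to 11.44 in AngII (median 11.37) and 10.97, 11.19, 10.70, 11.18 and 11.17 in Sham (difference 0.33, adjusted p = 0.102). The Tagln groups did not overlap. Tln1 read 6.12 to 6.51 in AngII (median 6.30) and 5.64, 5.45, 5.70, 6.26 and 5.78 in Sham, where 1 array overlapped the AngII arrays, and its difference of 0.54 was the largest of the 34 (standard error 0.13, ratio 1.46, adjusted p = 0.0782).

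Several mesenteric genes lay close to the threshold. Without Sham array 4 the count was 3, Des, Pgm5 and Tln1, and 5 genes passed when 1 fit of the 6 group means was used. Of the remaining genes, Ldb3, Synpo2, Cald1, Cnn1 and Pdlim3 had differences of 0.52, 0.43, 0.36, 0.34 and 0.30, with adjusted p-values of 0.174, 0.126, 0.107, 0.14 and 0.242. Among the 12 genes that fell in the thoracic aorta, the mesenteric differences ran from 0.01 for Itga8, 0.05 for Flna, 0.08 for Ppp1r12a and 0.12 for Myh11 to 0.43 for Actg2 and Synpo2. Acta2 read 14.17 to 14.45 in AngII and 14.18 to 14.45 in Sham (difference 0.04, adjusted p = 0.848). Without the 3 arrays rich in Try4, 0 genes passed and the median was 0.19. Of the endothelial markers 9 of 12 were negative (median −0.11), as were 6 of 7 white adipocyte markers (−0.16). All 9 pancreatic markers were positive (0.72). Fibroblast and macrophage markers had medians of 0.09 and −0.04, and 0 markers of these lists passed. Their part in the upward lean was not tested. AngII array 5 was the highest of its group in 22 of the 34 genes. Acta1, skeletal muscle actin and no member of the list, was at 8.02 to 9.14 in AngII and 7.42 to 7.95 in Sham (difference 0.78, standard error 0.17, adjusted p = 0.061). Of 21 other dense body and filament genes, 2 rose (0.265% of all genes), Csrp2, a LIM protein (0.55, adjusted p = 0.0486), and Flnc, filamin C (0.43, adjusted p = 0.0486).

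The AngII effect itself was compared between vessels in 1 fit of all 23 arrays, since a call in 1 vessel and none in another is no test of a difference. Between the thoracic aorta and the mesenteric arteries 18 of the 34 genes had a lower effect in the thoracic aorta (5.59% of all genes) and 1, Fhl2, a higher effect (6.96%). The median difference between effects was −0.54, against 0 over all genes. Ppp1r12a differed by −1.08 (limma adjusted p = 3e-04), Synpo2 by −1.02 (adjusted p = 0.00208), Ppp1r14a by −0.95 (adjusted p = 0.000357) and Itga8 by −0.92 (adjusted p = 0.0119). Actg2 and Des, which leaned upwards in the mesenteric arteries, differed by −0.85 (adjusted p = 0.00113) and −0.78 (adjusted p = 0.00274). Fhl2 differed by 0.74 (adjusted p = 0.00973). The other 12 genes with a lower effect were Pgm5, Tln1, Srf, Cald1, Cnn1, Myh11, Pdlim7, Actn1, Myocd, Flna, Mylk and Tpm2. With 1 array left out at a time, Myocd lost its call in 12 of 17 fits and Tpm2 in 11. Flna lost it in 4 and Tln1 in 3. Of the 34 genes, 29 were negative in the thoracic aorta and positive in the mesenteric arteries, and 24 of these were negative in the abdominal aorta too.

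**Figure D4:**
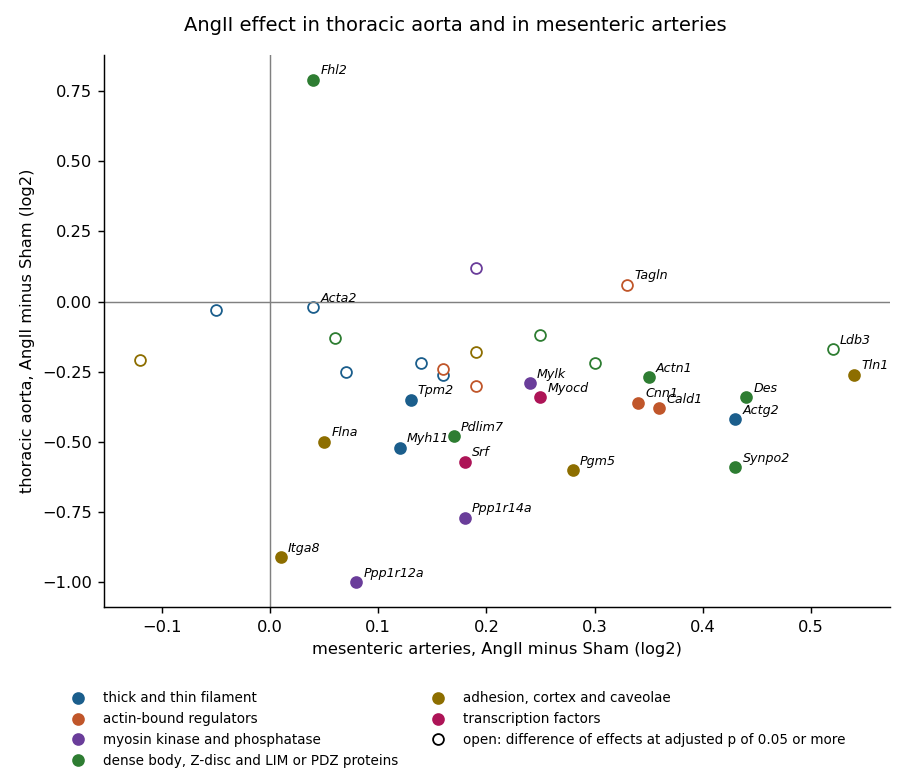
Log2 difference, AngII minus Sham, in the thoracic aorta on the vertical axis against that in the mesenteric arteries on the horizontal axis, 1 point for each of the 34 genes. Genes whose effect differed between the vessels at an adjusted p under 0.05 are filled, 18 lower and 1 higher in the thoracic aorta, and 29 genes lie below 0 on the thoracic axis and above 0 on the mesenteric axis.

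The abdominal aorta lay between. Against the mesenteric arteries, 2 genes had a lower effect in the abdominal aorta (0.529% of all genes), Ppp1r12a at −0.67 (adjusted p = 0.0437) and Des at −0.64 (adjusted p = 0.0377), and 0 a higher effect (1.73%). The median was −0.39. The count was 6 without AngII abdominal array 3 and 0 without any other abdominal array, the skeletal muscle-rich Sham array among them. It was 0 without AngII mesenteric array 2 or Sham mesenteric array 3 or 5. It was 1 without AngII mesenteric array 3, 5 or 6 or Sham mesenteric array 1. Without Sham mesenteric array 1 the gene that passed was Cald1, and neither Ppp1r12a nor Des did. Between the thoracic and the abdominal aorta 0 genes differed in effect (0.137% of all genes were lower and 0.411% higher), with a median of −0.13. An unadjusted p under 0.05 was found for 6 of these genes, against 1053 of all 10955 genes.

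Levels in vehicle-treated mice were compared among the Sham arrays. Against the mesenteric arteries, 26 of the 34 genes were higher in the thoracic aorta (27.1% of all genes) and 3 were lower (26%), with a median difference of 0.68, against 0.03 over all genes. On the authors' own normalised values the split was 16 higher and 6 lower, with a median of 0.17 for these genes and of −0.32 for all. Itga8 averaged 10.73 in the thoracic aorta and 7.48 in the mesenteric arteries, a ratio of 9.53 (difference 3.25, limma adjusted p = 1.72e-13). The next largest were Pgm5 at 1.93 (adjusted p = 1.14e-10), Myocd at 1.45 (adjusted p = 4.97e-09) and Fhl1 at 1.39 (adjusted p = 3.5e-12). Des was lower in the thoracic aorta, with 8.79, 8.72 and 8.56 in thoracic Sham and 12.10, 12.25, 11.82, 12.34 and 12.16 in mesenteric Sham, a ratio of 0.0919 (difference −3.44, adjusted p = 1.39e-16). Fhl2 was lower by 1.64 on the log2 scale (difference −1.64, adjusted p = 2.73e-10) and Actg2 differed by −0.28 (adjusted p = 0.0384), a call lost on leaving out 5 of the 8 Sham arrays in turn. Acta2, Myl6, Tpm1, Csrp1 and Cav1 did not pass, with differences of 0.16, 0.19, 0.11, 0.06 and 0.19.

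Between the abdominal aorta and the mesenteric arteries, 24 genes were higher in the abdominal aorta (23.8% of all genes) and 3 were lower (24%), with a median of 0.49. On the authors' values the split was 10 higher and 11 lower, with a median of −0.06 for these genes and −0.29 for all. The largest differences were those of Itga8 at 2.83 (adjusted p = 3.61e-12), Pgm5 at 1.69 (adjusted p = 1.8e-09), Ldb3 at 1.49 (adjusted p = 9.45e-07) and Fhl1 at 1.35 (adjusted p = 1.21e-11). The 3 lower genes were again Des at −1.25 (adjusted p = 5.68e-09), Actg2 at −0.43 (adjusted p = 0.00317) and Fhl2 at −0.43 (adjusted p = 0.00946). These contrasts share the mesenteric Sham arrays. Endothelial markers moved with them: all 12 measured were lower in the thoracic and in the abdominal aorta than in the mesenteric arteries, with medians of −1.76 and −1.24, as were all 9 macrophage markers, at −1.31 and −1.11. Of 7 white adipocyte markers, 6 were lower in each part of the aorta. Of 6 brown adipocyte markers, 4 were higher in the thoracic aorta than in the mesenteric arteries (median 1.80), and 0 passed for the abdominal aorta. Their part in the muscle gene levels was not tested.

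The thoracic and the abdominal aorta were closer. In the thoracic aorta 2 genes were higher (5.65% of all genes), Tln1 by 0.69 (adjusted p = 0.0147) and Synpo2 by 0.49 (adjusted p = 0.0421), and 2 were lower (8.82%), Des by −2.20 (adjusted p = 2.81e-11) and Fhl2 by −1.22 (adjusted p = 2.2e-06). Only Des and Fhl2 kept their calls without thoracic Sham array 2 or without abdominal Sham array 2. The median was 0.08, and on the authors' values 18 genes were higher and 3 lower, with a median of 0.29 for these genes and −0.08 for all. Markers of other cells differed too: 8 of 12 endothelial and 6 of 8 fibroblast markers were lower in the thoracic aorta, with 1 fibroblast marker higher, and 4 of 6 brown adipocyte markers were higher (median 2.61). Their part in these differences was not tested. Des thus had 3 separate levels in Sham mice, 8.69 (thoracic), 10.89 (abdominal) and 12.13 (mesenteric), and no array of 1 vessel reached the range of another. Fhl2 followed the same order at 6.82, 8.04 and 8.46. For Itga8 the means were 10.73, 10.31 and 7.48, and those of the aorta parts did not differ beyond the threshold. The means of 23 of the 34 genes fell in the order thoracic, abdominal, mesenteric, and those of 6 others were highest in the abdominal and lowest in the mesenteric vessels.

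**Figure D5:**
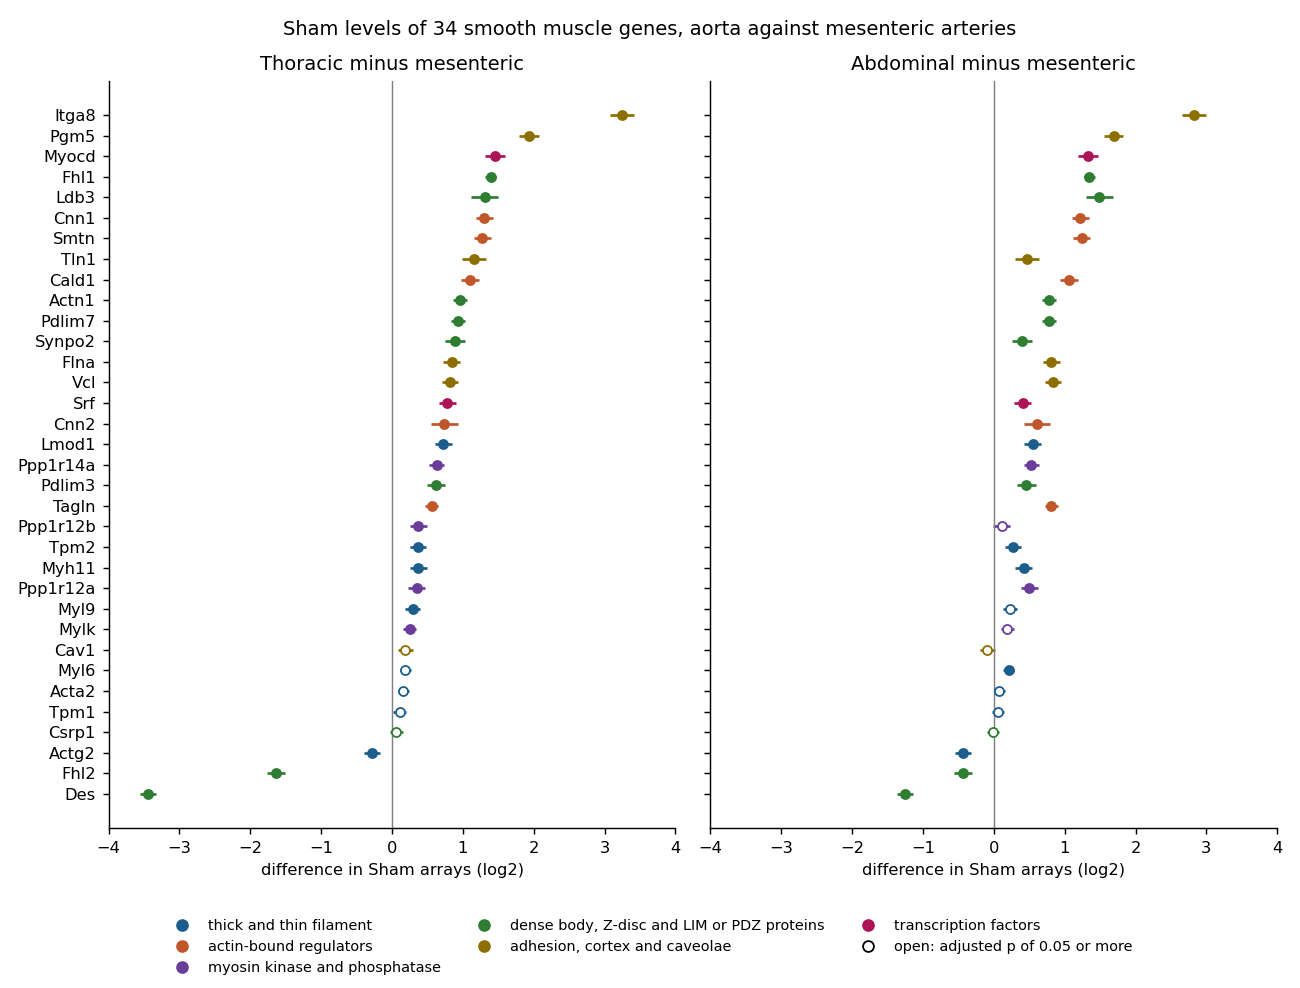
Sham levels of the 34 genes in the thoracic aorta and the abdominal aorta relative to the mesenteric arteries, as log2 differences with standard errors. Itga8 is highest at 3.25 and 2.83, and Des lowest at −3.44 and −1.25.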

How the data were processed

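RNA pooled from 2 mice per vessel was measured on 23 Illumina MouseWG-6 v2.0 arrays. The deposited probe intensities had not been normalised, and each probe came with a deposited detection p-value. The authors also deposited log2 values after robust spline normalisation, with R 3.0.2, lumi and limma named in the submitters' processing notes, and these served as an alternative. Groups came from the labels. Here the intensities were background-corrected and quantile-normalised together with neqc (offset 16, limma 3.58.1, R 4.3.3). Probes detected on 3 or more arrays (detection p below 0.01) were kept, 20585 of 45281. Of all probes, 34885 carried 1 gene symbol in the platform annotation, 18 several and 10378 none, and each gene was represented by its probe of highest mean signal (10955 genes).

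AngII was set against Sham within each vessel by a limma fit of that vessel's arrays. Sham levels between vessels and differences of AngII effects came from 1 fit of the 6 group means of all arrays. Adjustment was by Benjamini-Hochberg over all transcripts tested, with a threshold of 0.05. The script was tested on simulated data. All members are named, with values per array for the 10 largest changes that passed and for 1 or 2 bright members of each role that did not. Between vessels the 4 most positive and the 4 most negative members that passed are named, and from related lists the 2 with the smallest adjusted p in each direction, except 1 gene that is not reported here. The members and lists were chosen with earlier results of these data known. Alternatives were other normalisations, filters, probes, variance models, the replicate number as a block and each array left out. Pools of different vessels from the same mice could not be tied together. Array numbers only name the arrays. The figures were drawn with matplotlib 3.10.9 in Python 3.11.15.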

Additional observations from a re-analysis of the deposited data

Results flagged for a closer look

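Among 68 groups of values from the mesenteric arteries, 4 held an array far from the others, and about 1 group in 20, or 3.4 of 68, would do so by chance. Vcl read 11.45 on AngII mesenteric array 4, against 11.55 to 11.60 on the other AngII arrays. In Sham, Ppp1r12b read 4.43 on mesenteric array 5, against 4.62 to 4.69, which is near the limit of detection. Fhl1 read 12.74 on Sham mesenteric array 2, against 12.42 to 12.48 on the others. Pgm5 read 9.18 on Sham mesenteric array 4, against 8.49 to 8.63, and this array also overlapped the AngII arrays for Tln1. Leaving it out gave 3 genes that passed in the mesenteric arteries, Des, Pgm5 and Tln1.

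The AngII effect differed between vessels in a limma test of the difference itself for 19 genes when the thoracic aorta was set against the mesenteric arteries, and for 2 genes when the abdominal aorta was. For the thoracic aorta the log2 differences between effects were −0.85 for Actg2, −0.65 for Myh11, −0.48 for Tpm2, −0.70 for Cnn1 and −0.74 for Cald1. For the kinase and phosphatase genes they were −0.53 for Mylk, −1.08 for Ppp1r12a and −0.95 for Ppp1r14a. Among dense body proteins they were −0.62 for Actn1, −1.02 for Synpo2, −0.65 for Pdlim7, −0.78 for Des and, with the opposite sign, 0.74 for Fhl2. Among adhesion genes they were −0.81 for Tln1, −0.55 for Flna, −0.92 for Itga8 and −0.88 for Pgm5, and among transcription factors −0.60 for Myocd and −0.75 for Srf. The Myocd and Tpm2 calls were lost in most of the fits that left out 1 array. For the abdominal aorta the differences between effects were −0.67 for Ppp1r12a and −0.64 for Des.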

How the results depend on the processing

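The 13 thoracic calls became 22 with a variance trend and robust prior. The authors' values gave 18, and 22 with the replicate number as a block. In the abdominal aorta, where 0 genes passed, 1 passed without background correction, 1 with the variance trend and 2 in 1 fit of the 6 group means. In the mesenteric arteries, with 0 in the reported setting, 2 passed on the authors' values, 1 without background correction, 1 among transcripts detected on every array, 3 with the variance trend and 5 in the fit of 6 group means. On the authors' values 21 genes differed between the thoracic and the abdominal aorta of Sham mice, against 4. The authors' values also had array medians that differed by vessel. Sham arrays had 6.77 (thoracic), 7.03 to 7.04 (abdominal) and 6.95 to 6.96 (mesenteric). The 2 differences between the abdominal and the mesenteric effect became 0 with no filter on detection, 1 with the second probe of each gene, 0 without the pancreas-rich arrays and 0 without the skeletal muscle-rich array. The cause of these changes was not tested.

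Leaving out each array in turn gave 10 to 13 thoracic, 0 abdominal and 0 to 3 mesenteric genes. Between Sham vessels it gave 26 to 30 (thoracic and mesenteric), 21 to 26 (abdominal and mesenteric) and 2 to 4 (thoracic and abdominal). Differences between effects numbered 15 to 23 (thoracic and mesenteric), 0 to 6 (abdominal and mesenteric) and 0 (thoracic and abdominal).

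The only sign changes among called genes came with the authors' values. For Sham thoracic minus mesenteric these were Myl9 at −0.03, Tpm2 at −0.01, Mylk at −0.05, Ppp1r12a at −0.03 and Ppp1r12b at −0.11. For Sham abdominal minus mesenteric they were Myh11 at −0.14, Myl6 at −0.15, Tpm2 at −0.34, Lmod1 at −0.10, Cnn2 at −0.02, Ppp1r12a at −0.13, Ppp1r14a at −0.11, Pdlim3 at −0.14 and Srf at −0.22. On the authors' values the median over all genes was also negative in both comparisons. Every value listed here lay above that median, except Tpm2 in the abdominal comparison.

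Whether the replicate numbers pair the samples could not be told from so few arrays. The deviations of same-numbered AngII and Sham arrays correlated at 0.15, −0.01 and 0.20 for thoracic arrays and at 0.02, 0.28 and 0.06 for abdominal arrays. For same-numbered mesenteric arrays the correlations lay between −0.56 and 0.86. Arrays of different numbers correlated between −0.34 and 0.17 (thoracic), −0.20 and 0.06 (abdominal) and −0.64 and 0.68 (mesenteric). With the replicate block on the authors' values 0 abdominal and 0 mesenteric genes passed. The same mesenteric arrays without the block, a setting chosen after seeing the data, also gave 0. A block by slide was not run, because the columns name no slide. Genes near background, such as Ppp1r12b, and those of the highest rank, Acta2 and Myl6, limit what these arrays can resolve.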

Other observations

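Averaged over the 34 genes, the log2 signal was 10.94, 10.92 and 10.90 on the AngII thoracic arrays and 11.20, 11.26 and 11.21 on the Sham thoracic arrays. For the abdominal aorta the AngII arrays gave 11.02, 11.03 and 11.16, and the Sham arrays 11.22, 11.15 and 11.26. In the mesenteric arteries it lay between 10.76 and 11.01 on the 6 AngII arrays and between 10.51 and 10.77 on the 5 Sham arrays. The AngII and Sham ranges were apart for the thoracic aorta and overlapped for the other two vessels. These averages are a description of the arrays, with no test.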
